A study of Citrus sinensis and Citrus x aurantiifolia and Citrus x latifolia with 53 samples.

Results

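The comparison concerns leaves of Mexican lime (Citrus aurantiifolia, ML), a diploid scion, on the tetraploid form of the rootstock Swingle citrumelo 4475. The labels give its parents as Citrus sinensis and Poncirus trifoliata, whereas citrumelos are known as crosses of grapefruit (Citrus paradisi) with Poncirus trifoliata. This combination is written ML4x. Leaves of 4 ML4x trees kept without irrigation for 9 days (water deficit, WD) were set against leaves of 3 ML4x trees under regular irrigation (control, Ctrl). The 7 libraries were picked by their labels out of 53 in the series, of which 26 came from leaves and 27 from roots. All trees had grown for 2 years in 40 L pots in a greenhouse, and all 7 leaf libraries carry the same diploid scion genotype, so that the extra chromosome sets are in the rootstock alone. The WD and Ctrl leaves of Mexican lime on the diploid rootstock (ML2x) and of the triploid Persian lime (Citrus latifolia, PL) on the tetraploid rootstock (PL4x), each 4 WD and 3 Ctrl libraries, and the 4 WD and 3 Ctrl root libraries of ML4x were used only for comparison, as were the roots of ML2x and PL4x (4 WD and 3 Ctrl each). Persian lime on the diploid rootstock (PL2x; 3 WD and 2 Ctrl leaf libraries, 3 WD and 3 Ctrl root libraries) entered the fits, and its controls entered the sets chosen in control trees. The study asked whether polyploidy of the rootstock or of the scion alters how a grafted tree copes with lack of water.

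When soil dries, plants close their stomata under the control of abscisic acid, a hormone made in roots and leaves, and photosynthesis slows. Leaf cells then make protective proteins, compatible solutes and water channels at altered rates, while transcripts of the photosynthetic apparatus, which make up much of a leaf's messenger RNA, commonly decline. A rootstock acts on this response from below the graft, through the water and the hormones and other signals it sends to the scion.

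Genes are given by the identifiers of the deposited tables, which pair them with no names. Of the 24533 identifiers 0 matched the sweet orange table at hand, so no role can be given for any of them and no list of pathway or cell type genes could be measured. The leaf label was therefore checked on genes instead of named markers. In control trees of the other 3 combinations, 1195 genes stood at least 8-fold higher in leaves than in roots. Leaves came from the lime scion and roots from the citrumelo rootstock, so tissue and genotype cannot be told apart in such sets. Levels were also scaled separately in each tissue. These leaf-biased genes took 21.7% to 35.3% of the counts in the ML4x WD leaf libraries and 36.8% to 38.0% in the ML4x Ctrl leaf libraries, against 0.881% to 1.06% in the 7 ML4x root libraries. Total counts ran from 12386171 to 54838385 in the WD leaf libraries and from 10687467 to 17432735 in the Ctrl ones. Levels are in CPM, a gene's count per 1000000 counts of its library, after TMM scaling, a factor for each library that assumes most genes to be unchanged. The libraries of a group came from separate trees.

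The 4 WD trees did not respond to the same degree, and library WD 1 stood nearest to the controls for most of the genes called below. The spread within the group, as the biological coefficient of variation common to the tested genes, was 0.359 among the 4 WD libraries and 0.197 among the 3 Ctrl libraries. The WD leaves of ML2x, PL2x and PL4x spread more widely, at 0.422, 0.413 and 0.509. An uneven WD group was therefore not particular to ML4x. Of 106 genes called below, WD 1 was the WD library closest to the control mean for 52 of the 57 that rose and for 34 of the 49 that fell. Over all genes tested, WD 1 was the closest for 37.1%, WD 2 for 34.7%, WD 3 for 15.1% and WD 4 for 13.0%. There WD 1 and WD 2 were thus nearly level. Among the 57 genes that rose, the median log2 change from the control mean was 1.03 in WD 1, 1.99 in WD 2, 2.04 in WD 3 and 2.08 in WD 4. Among the 49 that fell it was -1.22 in WD 1, -1.57 in WD 2, -1.87 in WD 3 and -1.90 in WD 4. These genes were called with all 4 libraries, so the sizes describe them and are no test.

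In ML4x leaves 57 genes rose and 49 fell under water deficit, of 19140 tested. A gene is called where its adjusted p is under 0.05 in edgeR's quasi-likelihood test with Benjamini-Hochberg adjustment, fitted on all 26 leaf libraries, and adjusted p-values below come from that test except where stated. The called genes were 0.298% of those tested for rises and 0.256% for falls, 0.554% together, and 3660 genes (19.1%) had an unadjusted p under 0.05. Adjusted p-values of the called genes ran from 0.0247 to 0.0489, all close to the threshold. Without library WD 1 the same test called 266 higher genes (1.39%) and 236 lower genes (1.23%), 2.62% together, which included all 57 and all 49. Without WD 2 it called 12 and 8. Without WD 3, WD 4 or any 1 of the 3 controls it called 0, with 2205 to 3315 genes at an unadjusted p under 0.05. That number was 4204 (22.0%) without WD 1 and 4346 (22.7%) without WD 2, both above the 3660 with all libraries. DESeq2 called 488 higher and 338 lower genes (2.55% and 1.77%, 4.32% together), and limma voom with quality weights called 3045 and 3224 (15.9% and 16.8%, 32.8% together). Voom without those weights called 54 and 159. The weights it gave the libraries were 0.651, 0.474, 1.05 and 1.72 for WD 1 to WD 4, against 1.75, 1.46 and 1.88 for Ctrl 1 to Ctrl 3.

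**Figure D1:**
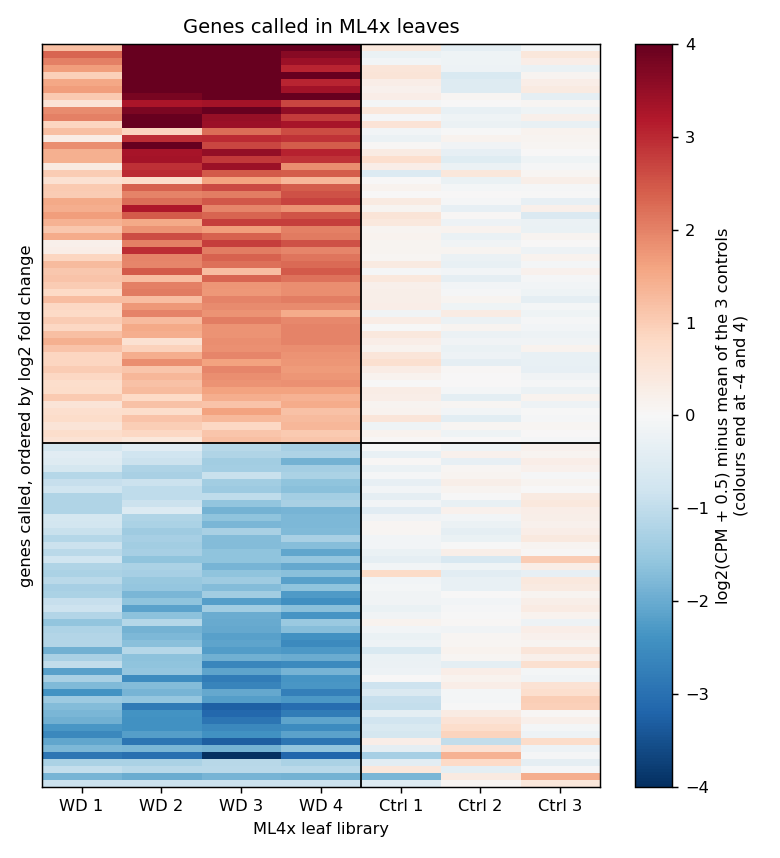
Heat map of the 106 genes called in ML4x leaves (rows, ordered by fitted log2 fold change, the 57 that rose above the line and the 49 that fell below it) in the 4 WD and 3 Ctrl libraries (columns); colour gives log2(CPM + 0.5) minus the mean of the 3 controls. The WD 1 column is the palest of the WD columns for most genes that rose, while the 3 control columns stay near 0 except for some of the largest falls at the bottom.

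The changes called were mostly large. Of the 57 genes that rose, 54 did so by more than 2-fold, 30 by more than 4-fold, 16 by more than 8-fold and 5 by more than 16-fold, with a median log2 fold change of 2.18 (range 0.87 to 5.67). Of the 49 that fell, 47 did so by more than 2-fold, 18 by more than 4-fold and 11 by more than 8-fold, with a median of -1.76 (range -6.11 to -0.87). The median over all genes tested was 0.05. Genes that fell had a median of 10.5 CPM in WD and 29.0 CPM in Ctrl leaves, and genes that rose had a median of 84.5 CPM in WD and 14.2 CPM in Ctrl leaves. The median over all genes tested was 13.9 CPM in Ctrl leaves. Of the genes that fell, 13 of 49 stood above 100 CPM in controls, a level reached by 9.98% of all genes tested, as did 8 of the 57 that rose. CPM does not take gene length into account, so these are levels of reads and not of molecules.

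Ciclev10002949m.g had the highest log2 fold change of the called genes. Its level was 10.2, 437, 272 and 161 CPM in WD 1 to WD 4, against 5.72, 3.17 and 3.98 CPM in Ctrl 1 to Ctrl 3. All 4 WD trees stood above the controls, but WD 1 was less than 2 times the highest control, while the other 3 lay far above. The fitted log2 fold change was 5.67 ± 1.24 (SE, adjusted p = 0.0477), and 6.07 without WD 1.

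Ciclev10022300m.g followed, with 19.0, 171, 114 and 47.9 CPM in WD 1 to WD 4, against 2.73, 2.95 and 4.82 CPM in Ctrl 1 to Ctrl 3. Here too the groups did not overlap, WD 1 was the lowest of the WD trees and WD 2 the highest. Its log2 fold change was 4.66 ± 1.06 (SE, adjusted p = 0.0477).

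Among genes that averaged at least 1 CPM over the 7 libraries, Ciclev10032777m.g had the lowest log2 fold change and was close to absent under water deficit, although 1 of its controls was as well. It had 1, 0, 3 and 1 counts in WD 1 to WD 4, against 1, 27 and 47 counts in Ctrl 1 to Ctrl 3. In CPM the controls were 0.0636, 2.04 and 4.93, so that Ctrl 1 lay just above the highest WD value of 0.0479 CPM, and the fall rests on Ctrl 2 and Ctrl 3. The log2 fold change was -5.71 ± 1.18 (SE, adjusted p = 0.0438).

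Ciclev10012001m.g, the next lowest by that rule, fell to 1.56, 1.38, 0.383 and 1.18 CPM in WD 1 to WD 4, against 5.47, 39.0 and 14.3 CPM in Ctrl 1 to Ctrl 3. WD 1 lay beside the other WD trees here, although it was the highest of them, and the controls spread more widely than the WD trees. Its log2 fold change was -4.15 ± 0.92 (SE, adjusted p = 0.0477). Each of these 4 genes lost its call when WD 2, WD 3, WD 4 or any 1 control was left out, while each kept its direction.

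**Figure D2:**
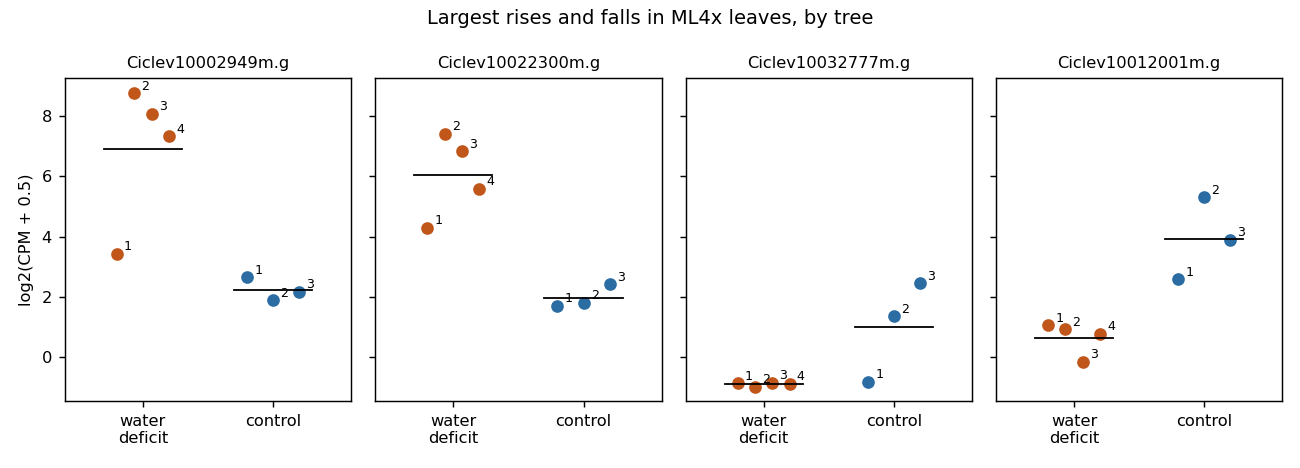
Levels of the 2 genes that rose most and the 2 that fell most (at a mean of at least 1 CPM) in ML4x leaves, as log2(CPM + 0.5) on the vertical axis, in the 4 WD and 3 Ctrl libraries; each point is 1 tree with its number, and the line is the group mean. In the 2 genes that rose, WD 1 lies between the controls and the other WD trees, and in Ciclev10032777m.g Ctrl 1 lies at the level of the WD trees.

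All 106 called genes had WD and Ctrl libraries that did not overlap. Over all genes tested, the WD libraries lay wholly above the controls for 1876 genes (9.8%) and wholly below for 1995 (10.4%), 20.2% together, so most such genes were not called. The balance depends on the scaling: with CPM of the unscaled totals, 3102 genes lay wholly above and 1240 wholly below.

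The most abundant leaf transcripts stood lower under water deficit, though the exact test of their summed share did not pass 0.05. The 10 genes with the highest mean CPM in the control leaves of the other 3 combinations were followed in ML4x. They took 11.3%, 8.21%, 4.99% and 5.37% of all counts in WD 1 to WD 4, against 12.9%, 11.9% and 12.6% in Ctrl 1 to Ctrl 3. Every WD tree was below every control, with WD 1 just below and WD 3 and WD 4 far below. The means were 7.48 ± 2.94% in WD (SD, n = 4) and 12.5 ± 0.505% in Ctrl leaves (SD, n = 3), a difference of -4.98 points (exact permutation test over 35 splits, two-sided, p = 0.0571). With 4 against 3 trees the smallest p that this test can give is 0.0286. Of the 10 genes 0 were called by edgeR in ML4x leaves, and all 10 had a log2 fold change below 0, from -1.81 to -0.43. Taken singly, several of the 10 overlapped between WD and Ctrl libraries. For the gene of rank 9, WD 2 stood at 5748 CPM, above all 3 controls (4772 to 5638 CPM).

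Ciclev10012893m.g, the most abundant of them by reads, stood at 27713, 16623, 5447 and 7795 CPM in WD 1 to WD 4, against 34062, 31802 and 36874 CPM in Ctrl 1 to Ctrl 3. The groups did not overlap, but the spread of the WD trees was wide, and the log2 fold change of -1.25 ± 0.80 did not pass the test (SE, adjusted p = 0.395), although it did by limma voom with quality weights (-1.82, adjusted p = 0.00876). Ciclev10031443m.g, the next in abundance, stood at 28962, 14207, 8158 and 11083 CPM in WD 1 to WD 4, against 31481, 22656 and 26883 CPM in Ctrl 1 to Ctrl 3. Here WD 1 lay above 2 of the controls, and the log2 fold change was -0.79 ± 0.60 (SE, adjusted p = 0.480 by edgeR), and -1.13 by limma voom with quality weights (adjusted p = 0.0167).

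The lower level was graded by abundance. The median log2 fold change in ML4x was -0.73 for the 10 most abundant genes, -0.72 for the next 90, -0.34 for the next 900, -0.07 for the 4000 after these and 0.13 for the 14140 tested genes below them. A log2 fold change below 0 was found for 81 of the 90 genes after the first 10 and for 41.9% of those in the least abundant set. Of the first 10 and the next 90 genes, 0 were called in ML4x leaves by edgeR. At an unadjusted p under 0.05, 3 of the 10 stood lower, and of the 90 there were 25 lower and 1 higher. The WD trees divided alike in both sets: over the 90 genes the mean log2 change was -0.22 in WD 1, -0.52 in WD 2, -1.39 in WD 3 and -1.31 in WD 4, with the 3 controls between -0.03 and 0.06.

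**Figure D3:**
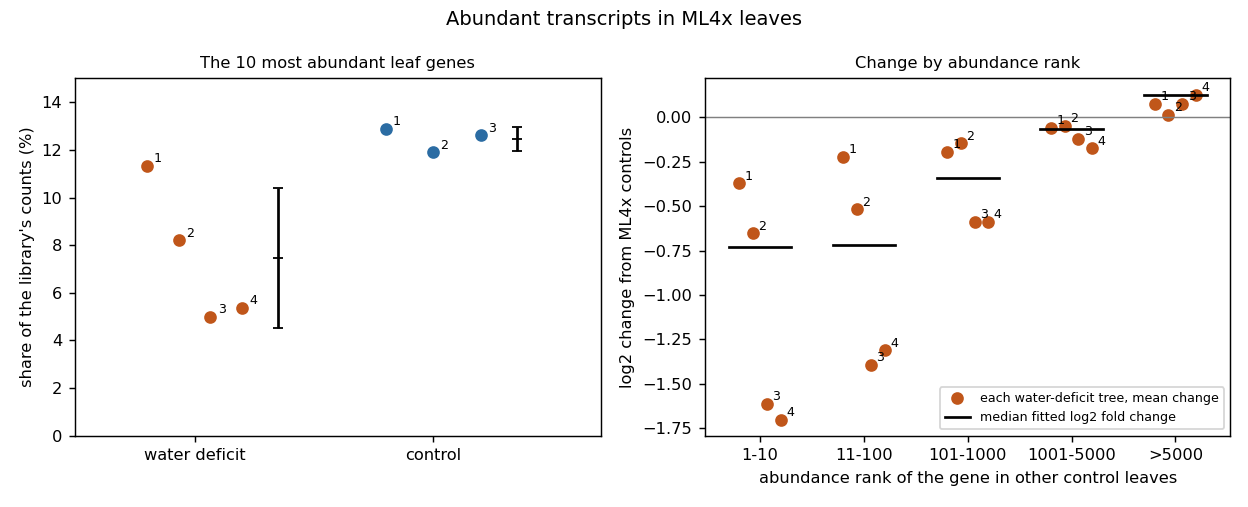
Left, share of each ML4x leaf library's counts taken by the 10 genes most abundant in control leaves of the other combinations, in percent, for the 4 WD and 3 Ctrl trees (points, with tree numbers; bars beside them, mean ± SD). Right, log2 change from the ML4x controls by abundance rank, with 1 point for the mean of each WD tree and a line for the median fitted log2 fold change. The shares of WD 3 and WD 4 lie near 5%, and the change shrinks from the most abundant ranks to the least.

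The leaf-biased genes were lower in ML4x leaves as well, for the most part without passing the test. Of the 1195 genes, 919 (76.9%) had a log2 fold change below 0, against 8930 of the 19140 genes tested, and their median was -0.44. The test called 5 lower and 2 higher, a share close to that over all genes tested (0.256% lower and 0.298% higher). Their mean log2 change was -0.13, -0.34, -0.86 and -0.67 in WD 1 to WD 4, with the controls between -0.03 and 0.02. Genes biased to roots by the same fold, of which 1739 of 2475 were tested in leaves, had a median of 0.17, with 14 called higher and 5 lower, where 0.298% and 0.256% of all genes tested were. Of these, 56.4% stood above 0, against 53.2% of all genes. Because bulk tissue was sequenced, fewer cells of a type and less RNA per cell cannot be told apart. No markers of leaf cell types could be named, and the part of cell composition in these shifts was not tested.

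The response of ML4x leaves ran along that of the other combinations. All 57 genes that rose in ML4x had a log2 fold change above 0 in ML2x, where 54.4% of all genes did, and 51 of them rose there, against 5.96% of all genes tested (11.3% in either direction). All 49 that fell in ML4x were below 0 in ML2x, and 24 fell there, against 5.35% of all genes. In PL4x leaves 47 of the 57 rose (16.6% of all genes did) and 31 of the 49 fell (12.3% of all genes, 28.8% in either direction). In neither combination was any of the 106 called in the opposite direction. Median log2 fold changes of the 57 were 2.18 in ML4x, 1.98 in ML2x and 1.96 in PL4x, and those of the 49 were -1.76 in ML4x, -1.29 in ML2x and -1.13 in PL4x. The genes were called in ML4x, which favours large values there.

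Read from the other side, genes that responded in other trees moved the same way in ML4x. The 791 genes that rose and the 644 that fell in both ML2x and PL4x were called by contrasts of other trees, but in the fit of all 26 leaf libraries, which shares its filter and spread with ML4x. Of the 791, 775 (98.0%, against 53.2% of all genes tested) had a log2 fold change above 0 in ML4x and 45 rose there (0.298% of all genes did), with a median of 0.97 (1.13 without WD 1). Of the 644, 641 (99.5%) were below 0 and 17 fell (0.256% of all genes did), with a median of -1.04 (-1.33 without WD 1). When the lists were drawn from a fit that held no ML4x library, a setting added after the data were seen, they shrank to 424 and 298 genes, with ML4x medians of 1.27 and -1.18. The mean log2 change of the 791 was 0.30 in WD 1, 1.05 in WD 2, 1.40 in WD 3 and 1.11 in WD 4, and between -0.07 and 0.05 in the 3 controls. For the 644 it was -0.52 in WD 1, -1.001 in WD 2, -1.66 in WD 3 and -1.45 in WD 4, and between -0.15 and 0.10 in controls. Each WD tree, WD 1 included, therefore lay outside the range of its controls in both directions.

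Whether the tetraploid rootstock changes the leaf response was asked by the difference between the ML4x and ML2x responses. No gene passed edgeR's test of that difference (0 of 19140, 0%), and DESeq2 and limma voom with quality weights also made 0 calls. Genes at an unadjusted p under 0.05 numbered 623 (3.25%) by edgeR, 800 (4.18%) by DESeq2 and 2702 (14.1%) by voom with those weights. The difference was imprecise for single genes. The response of Ciclev10002949m.g was lower in ML4x than in ML2x by a log2 difference of -1.54 ± 1.44 (SE, 95% interval -4.53 to 1.44), from 220 ± 180 CPM in ML4x WD leaves and 4.29 ± 1.30 CPM in ML4x Ctrl leaves, and 302 ± 119 CPM in ML2x WD leaves and 2.10 ± 1.599 CPM in ML2x Ctrl leaves (SD, n = 4 WD and 3 Ctrl). For Ciclev10012001m.g the difference was -0.32 ± 1.27 (SE, 95% interval -2.95 to 2.31). Such intervals allow a response several times weaker or stronger on either rootstock.

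Genes called in PL4x leaves were then followed in both Mexican lime combinations, whose libraries are not in the PL4x contrast, although they share the filter and the spread of the fit. The 3170 genes that rose in PL4x had a median log2 fold change of 0.47 in ML4x and 0.60 in ML2x. The 2347 that fell in PL4x had a median of -0.64 in ML4x and -0.85 in ML2x. Drawn from a fit of the PL leaf libraries alone, a setting also added after the data were seen, the lists shrank to 1342 and 954 genes. Their medians were then 0.63 in ML4x and 0.81 in ML2x for the rises, and -0.73 in ML4x and -0.91 in ML2x for the falls. By tree, the mean log2 change of the genes that rose in PL4x was 0.26, 0.38, 0.76 and 0.65 in ML4x WD 1 to WD 4, against 0.59, 0.93, 0.78 and 0.85 in ML2x WD 1 to WD 4. For those that fell it was -0.36, -0.45, -1.06 and -0.93 in ML4x WD 1 to WD 4, against -0.71, -0.92, -0.96 and -1.13 in ML2x WD 1 to WD 4. ML4x trees WD 3 and WD 4 lay among the ML2x trees, while WD 1 and WD 2 lay below all of them in size. The values of the 2 combinations overlapped.

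**Figure D4:**
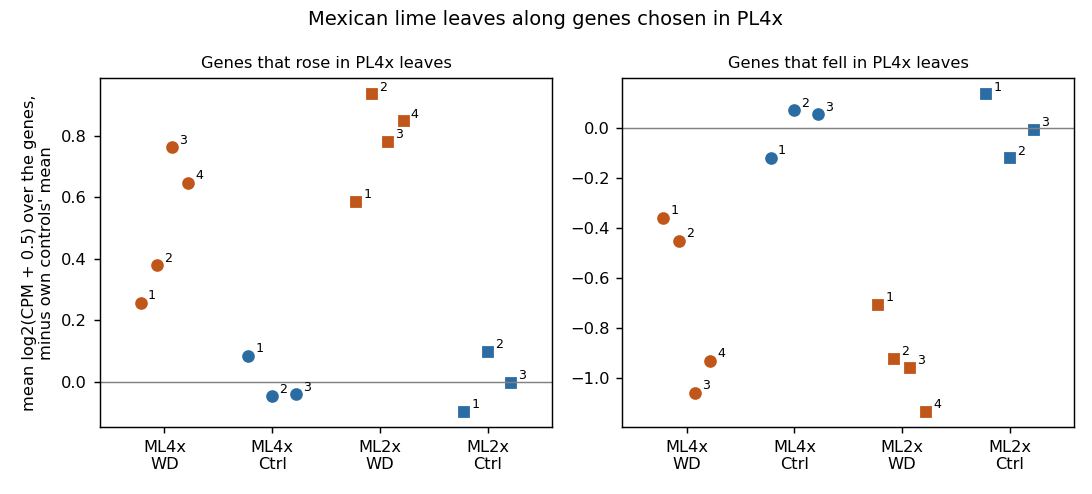
Mean log2(CPM + 0.5) of the 3170 genes that rose (left) and the 2347 that fell (right) in PL4x leaves, minus the mean of the combination's own controls (vertical axis), in each ML4x (circles) and ML2x (squares) leaf library, WD in orange and Ctrl in blue, with tree numbers. ML4x WD 3 and WD 4 fall among the ML2x WD trees and ML4x WD 1 and WD 2 lie closer to 0.

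The difference between ML4x and PL4x responses compares diploid Mexican lime with triploid Persian lime on the same rootstock. Ploidy and species of the scion cannot be told apart in it. By edgeR 0 genes passed (0%), and 2092 (10.9%) had an unadjusted p under 0.05. The same difference had 64 calls by DESeq2 and 3548 by limma voom with quality weights. Among the genes named above, the log2 fold change of Ciclev10032777m.g was -5.71 ± 1.18 in ML4x and -0.60 ± 1.31 in PL4x (SE), a difference of -5.12 ± 1.74 (95% interval -8.72 to -1.51, adjusted p = 0.352). It stood at 0.0321 ± 0.0217 CPM in ML4x WD leaves and 2.34 ± 2.45 CPM in ML4x Ctrl leaves, and at 0.125 ± 0.0804 CPM in PL4x WD leaves and 0.246 ± 0.322 CPM in PL4x Ctrl leaves (SD, n = 4 WD and 3 Ctrl). PL4x had 3, 1, 6 and 2 counts in WD 1 to WD 4, against 1, 5 and 0 counts in Ctrl 1 to Ctrl 3. At so few counts in PL4x controls, a fall could hardly be measured there.

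Roots of the same combination, which carry the tetraploid genotype, had far more calls by edgeR and DESeq2, but not by limma voom with quality weights. By edgeR 1304 genes rose in ML4x roots (6.38% of 20452 tested) and 1631 fell (7.97%), 14.4% together. DESeq2 called 826 of 19140 genes in leaves and 3892 of 20452 in roots. Voom with those weights called 6269 in leaves and 5903 in roots. Of the 57 genes that rose in ML4x leaves, 20 rose in roots, 1 fell and 36 were not called. For some of these 36, Ciclev10022300m.g below among them, root library Ctrl 1 stood several times above Ctrl 2 and Ctrl 3. For others it did not. How far that library accounts for the lack of calls was not tested. Of the 49 that fell in leaves, 48 were tested in roots, where 16 fell, 1 rose and 31 were not called. Their median log2 fold changes in roots were 0.50 for the genes that rose in leaves and -0.66 for those that fell, against -0.02 over all genes tested in roots. Starting from the roots, 1209 of the 1304 genes that rose were tested in leaves, with a median leaf log2 fold change of 0.44, and 78.5% of them stood above 0. Of the 1631 that fell in roots, 1226 were tested in leaves, with a median of -0.36 and 70.6% below 0.

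**Figure D5:**
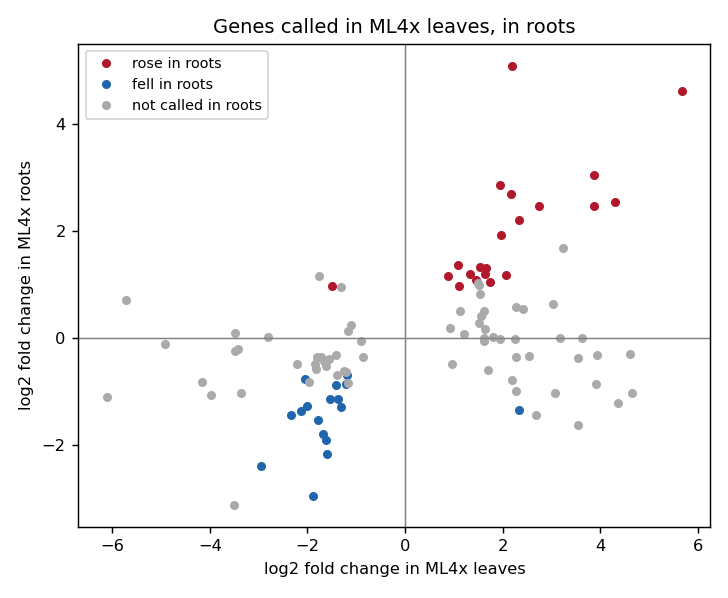
Fitted log2 fold changes (WD over Ctrl) in ML4x roots (vertical axis) against ML4x leaves (horizontal axis) for the 105 genes called in leaves and tested in roots; colour gives the call in roots. The 20 genes that rose in both tissues lie at the upper right and the 16 that fell in both at the lower left, with many grey points near 0 on the root axis.

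Ciclev10008812m.g rose in both tissues. In leaves it stood at 19.6, 164, 401 and 245 CPM in WD 1 to WD 4, against 14.3, 6.27 and 10.7 CPM in Ctrl 1 to Ctrl 3, a log2 fold change of 4.31 ± 0.89 (SE, adjusted p = 0.0438). In roots it stood at 258, 593, 630 and 357 CPM in WD 1 to WD 4, against 73.8, 80.9 and 82.6 CPM in Ctrl 1 to Ctrl 3, a log2 fold change of 2.54 ± 0.51 (SE, adjusted p = 0.00233). WD 1 was the lowest WD library in both tissues and above all controls in both.

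Ciclev10002949m.g also rose in ML4x roots, with a log2 fold change of 4.62 ± 0.94 (SE, adjusted p = 0.00271). There the WD libraries stood close together, at 126, 239, 190 and 206 CPM in WD 1 to WD 4, against 13.2, 9.11 and 1.30 CPM in Ctrl 1 to Ctrl 3. Root library WD 1 was thus well above its controls for this gene, unlike leaf library WD 1, although the labels do not state whether leaf and root libraries of 1 number came from the same tree. Ciclev10022300m.g did not pass in roots (log2 fold change -1.04 ± 0.77, SE, adjusted p = 0.385), where its Ctrl 1 library alone reached 4049 CPM.

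Ciclev10007387m.g fell in both tissues. It stood at 7.12, 3.08, 2.19 and 2.60 CPM in WD 1 to WD 4 leaves, against 12.8, 24.8 and 49.3 CPM in Ctrl 1 to Ctrl 3 leaves, a log2 fold change of -2.95 ± 0.52 (SE, adjusted p = 0.0247). In roots it stood at 79.1, 38.5, 17.8 and 44.8 CPM in WD 1 to WD 4, against 164, 322 and 222 CPM in Ctrl 1 to Ctrl 3, a log2 fold change of -2.39 ± 0.53 (SE, adjusted p = 0.00485). WD 1 was the highest WD library in both tissues without reaching the controls.

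Ciclev10017138m.g fell in leaves to 25.6, 37.4, 32.6 and 20.3 CPM in WD 1 to WD 4, against 91.4, 129 and 221 CPM in Ctrl 1 to Ctrl 3, a log2 fold change of -2.34 ± 0.52 (SE, adjusted p = 0.0477). WD 4 was the lowest tree and WD 1 the next, so WD 1 did not stand nearest to the controls here. In ML2x leaves its log2 fold change was -0.56 ± 0.51 (SE, adjusted p = 0.50), and the ML4x response minus the ML2x response was -1.79 ± 0.73 (SE, 95% interval -3.30 to -0.27), which did not pass over all genes (adjusted p = 0.898). In roots it was low, at 1.81 to 2.67 CPM in WD and 4.45 to 8.99 CPM in Ctrl libraries.

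The 2 genes called in opposite directions in leaves and roots are named here after their values were seen. Ciclev10026152m.g rose in leaves, to 11.1, 28.8, 35.0 and 29.6 CPM in WD 1 to WD 4, against 5.66, 4.83 and 4.93 CPM in Ctrl 1 to Ctrl 3 (log2 fold change 2.34 ± 0.54, SE, adjusted p = 0.0483). It fell in roots, with 29.2, 25.9, 27.9 and 34.6 CPM in WD 1 to WD 4, against 128, 76.8 and 20.7 CPM in Ctrl 1 to Ctrl 3 (log2 fold change -1.35 ± 0.40, SE, adjusted p = 0.0262), where Ctrl 3 lay below all WD libraries. Ciclev10026490m.g fell in leaves, to 54.3, 45.7, 37.8 and 26.7 CPM in WD 1 to WD 4, against 95.5, 136 and 118 CPM in Ctrl 1 to Ctrl 3 (log2 fold change -1.50 ± 0.34, SE, adjusted p = 0.0477). It rose in roots, to 59.9, 69.3, 72.2 and 97.1 CPM in WD 1 to WD 4, against 47.5, 29.6 and 36.9 CPM in Ctrl 1 to Ctrl 3 (log2 fold change 0.98 ± 0.21, SE, adjusted p = 0.00383), with no overlap in either tissue. These 5 genes described in roots lost their leaf calls, too, without WD 2, WD 3, WD 4 or any 1 leaf control.

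Root library WD 1 also stood nearest to its controls for most of the genes called in ML4x roots. Of the 2935 genes called in ML4x roots, WD 1 was the WD library closest to the control mean for 65.7%. These genes were called with WD 1 included, and the share over all genes tested in roots was not computed. That percentage therefore only describes the called genes. Along the 1309 genes that rose in both ML2x and PL4x roots, the mean log2 change in ML4x roots was 0.54 in WD 1, 1.25 in WD 2, 1.46 in WD 3 and 1.10 in WD 4, with controls between -0.04 and 0.04. Along the 1636 that fell there it was -0.92 in WD 1, -1.86 in WD 2, -2.08 in WD 3 and -1.68 in WD 4, with controls between -0.23 and 0.17. On the genes called in both ML2x and PL4x, of the same tissue, WD 1 thus changed least and WD 3 most in leaves and in roots, while the link between the numbers and trees is not stated. On the 10 most abundant leaf genes WD 4 and not WD 3 changed most.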

How the data were processed

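Leaf and root RNA was sequenced with a stranded mRNA kit, per the labels' protocols, and the libraries of a group came from different trees. The authors deposited raw counts per gene as whole numbers, 1 table for each tissue. Per the submitters' processing notes, Trimmomatic and HTSeq were used. Not given in the sources used here: the aligner, genome build, versions and strand setting. Thus reads shared by near-identical or overlapping genes cannot be placed with certainty. No 2 of the ML4x leaf libraries within a group were alike (smallest mean chi-square per gene 18.2).

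Each tissue was fitted with its 8 groups in edgeR 4.0.16 (R 4.3.3): filterByExpr by group (19140 leaf and 20452 root genes kept), TMM, glmQLFit with robust estimation and glmQLFTest. The leaf fits were run on simulated counts with the same spread in every group, unlike the WD and Ctrl groups here. That run does not bear on their unequal spread or on the differing counts of calls between methods. SE is the log2 fold change divided by the square root of its F value, and intervals are at 95%. DESeq2 1.42.0 and limma 3.58.1 (voom) were alternatives, as were DESeq2's size factors, no filter, leaving out libraries, only the 7 ML4x libraries, and a replicate block. Named genes are the 2 highest and 2 lowest log2 fold changes among called genes that averaged at least 1 CPM over the 7 libraries, for the contrast and for genes called alike in leaves and roots, and the 2 most abundant genes. The mean log2 changes by tree used log2(CPM + 0.5). Leaf-biased and root-biased genes had at least 5 CPM in the higher tissue. The comparison and gene sets were chosen with earlier results of these data known. Gene lists by product name, planned in case names could be matched, were not measured.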

Additional observations from a re-analysis of the deposited data

Results flagged for a closer look

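Of 28 sets of 4 WD values compared (levels of the named genes in ML4x leaves and roots, and summary values of ML4x leaves), 1 held a library far from the other 3, where chance gives about 1 in 20. Ciclev10012001m.g stood at 37.8 CPM in ML4x WD 1 roots, against 9.44, 10.8 and 6.49 CPM in WD 2, WD 3 and WD 4 roots. The 3 ML4x Ctrl roots stood at 31.4, 24.9 and 30.3 CPM, so root library WD 1 lay above the controls while the other 3 WD libraries lay below them. The gene was not called in ML4x roots (log2 fold change -0.83 ± 0.57, SE, adjusted p = 0.346 by edgeR). In leaves, where it was called, WD 1 stood at 1.56 CPM beside the other WD trees.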

How the results depend on the processing

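The count of 106 called leaf genes was within 1.5 times only with DESeq2's size factors (53 higher, 51 lower). It became 47 without the filter, 60 without the 2 leaf libraries under 5000000 counts, 0 with only the 7 ML4x libraries, 826 by DESeq2, 6269 by limma voom with quality weights, 213 by voom without them (added after the data were seen), and 0 to 502 with 1 ML4x library left out. The cause was not tested. The 2935 root calls became 5903 by voom, 1787 with the 7 ML4x root libraries and 1415 to 4229 with 1 of these left out. The difference of ML4x and PL4x responses gave 64 calls by DESeq2 and 3548 by voom, and 0 under every other setting run. That of ML4x and ML2x responses gave 0 under each of the 12 alternatives run.

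Libraries of a group share only a number with those of another: same-numbered leaf WD and Ctrl libraries deviated together with correlations of 0.03, 0.02 and -0.09 across genes, and 0 of 3 WD libraries correlated best with their own number (2 of 3 in roots). With the replicate block 0 leaf and 2040 root genes were called.

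Of 152 values of the 11 named genes under alternatives, 0 changed sign, 82 lost a call and 2 gained one. The 152 include the 2 most abundant genes, which were not called in the main fit and could lose no call. Both gains were theirs. The drop in the share of the 10 most abundant genes ran from -6.27 to -4.16 points with 1 library left out. The medians of genes called in ML2x and PL4x ran from 0.82 to 1.13 (higher) and from -1.33 to -0.88 (lower). These ranges leave out the lists drawn from the fit without ML4x libraries, whose medians were 1.27 and -1.18. Of 158 medians of other gene sets, 2 moved by more than the spread of the WD trees, both of root-biased genes (0.07 by voom, 0.25 without Ctrl 2). Totals of 10687467 to 54838385 counts limit mainly genes at a few counts, such as Ciclev10032777m.g.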

Other observations

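Counts were spread over more genes in the ML4x WD leaves. In WD 1 to WD 4 it took 617, 756, 1170 and 1148 genes to reach 50% of the counts, against 552, 587 and 505 genes in Ctrl 1 to Ctrl 3. The groups did not overlap, and the mean was 923 ± 279 genes in WD (SD, n = 4) and 548 ± 41.1 genes in Ctrl leaves (SD, n = 3), with an exact permutation p of 0.0857 (two-sided). The smallest p that this test can give here is 0.0286. The number of genes above 10 CPM differed little, at 10702 to 10830 in WD and 10628 to 10733 in Ctrl leaves (exact permutation p = 0.171).

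Few genes went on or off outright. With 0 counts in all 3 ML4x Ctrl leaf libraries and at least 3 counts in each WD library there were 8 genes, of which 7 were tested, 0 were called by edgeR and none exceeded 2.56 CPM. In the other direction, 0 genes had no count in the 4 WD libraries and at least 3 in each control. These rules are not equally strict, so 8 and 0 cannot be compared directly. The 4 WD libraries held 12386171 to 54838385 counts each, and the 3 Ctrl libraries 10687467 to 17432735.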
